A study of Homo sapiens with 3 samples.

Results

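Formins are a family of actin-assembling proteins, and 10 of the 15 human formin genes (DIAPH1, DIAPH2, DIAPH3, DAAM1, FMNL1, FMNL2, FMNL3, FHOD1, INF2 and FMN2) were examined here, out of 43317 gene names on the array. The set was chosen by the values of DIAPH1, whose signal was lower in both SMARCA4 knockdowns than in the control on these same arrays, and the other members are its relatives by family. The values of DIAPH1 are therefore a description and support nothing. The study transfected HCT116 cells, an established colorectal cancer line, with small interfering RNA (siRNA) against SMARCA4, an ATPase of the SWI/SNF chromatin remodelling complex. There was 1 array each of the SMARCA4-KD1 cells, the SMARCA4-KD2 cells and the NC cells, where NC stands for transfection with a scrambled negative control. Knockdown cells received different siRNAs against the same gene, and all 3 groups went through transfection. The treatment field of the sample records names PRMT1 while titles and the siRNA protocol name SMARCA4, and samples were numbered as knockdown 1 or 2 by the treatment field.

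A formin carries a formin homology domain that starts an actin filament and then rides on its growing end, adding actin delivered by profilin. The product is a straight, unbranched filament, as found in stress fibres, filopodia and the contractile ring, whereas the Arp2/3 complex builds branched networks. Several formins, DIAPH1 among them, are folded on themselves until they are switched on. In epithelial cells formin-built actin supports cell junctions, adhesion and movement, and actin assembly by formins also releases the coactivators MRTF to the transcription factor SRF.

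Each array measured total RNA in 1 colour (Cy3) with 60-base probes, and a value below is the background-subtracted signal of the probe on that array in arbitrary units. Signals of a probe are set only against the same probe on other arrays, because the brightness of different probes is not comparable. Fold changes were computed after the 75th percentile of each array (signals of 237 for SMARCA4-KD1 and 228 for SMARCA4-KD2, against 223 for NC) had been subtracted on the log2 scale. With 1 array per group nothing could be tested, and the error printed is the measurement error that the extraction software assigned to the spots. It holds no variation between cultures. Slide 1 carried both knockdown arrays and slide 2 the NC array, so slide and group cannot be told apart. Both comparisons also share the single NC array.

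The targeted gene was read first. SMARCA4 had a signal of 3960 for SMARCA4-KD1 and 4129 for SMARCA4-KD2, against 14026 for NC, log2 fold changes of -1.91 and -1.80 with NC as the reference. PRMT1 had signals of 9801, 10147 and 7683 in the same order, log2 fold changes of 0.27 and 0.37. The arrays labelled as SMARCA4 knockdown thus held less SMARCA4 signal and no less PRMT1 signal than NC. SMARCA2, the alternative ATPase of the same complex, had low signals. Its brightest probe gave 44.1 for SMARCA4-KD1 and 59.1 for SMARCA4-KD2, against 114 for NC. These are log2 fold changes of -1.45 and -0.97, with errors of 0.24 and 0.22 (-0.78 and -0.57 with the normexp correction described below). Its other probe gave 25.4, 31.1 and 96.7, log2 fold changes of -2.01 and -1.67 with errors of 0.29 and 0.26. The lowest signals well above background were 16.9, 16.4 and 17.7 in the same order.

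The line was checked against marker genes. Of 10 colorectal epithelial markers, 7 were well above background on all arrays. KRT20 was well above background in both knockdowns only, and VIL1 and LGALS4, also defining markers of intestinal epithelium, were not well above background on any array. The brightest probe of each gene was summed on each array, before scaling. The sum of the colorectal list was 398106 for SMARCA4-KD1 and 390270 for SMARCA4-KD2, against 369828 for NC. KRT19 alone held 211695, 217698 and 202585 of it in the same order, whereas CDH1 was lower in the knockdowns (3341 and 3125, against 3573). Of 11 markers of leukocytes, fibroblasts and endothelium, 6 were well above background on all arrays, and CD3E, COL1A2, DCN, PDGFRB and PECAM1 were not on any. The sum over the brightest probe of each of these markers, also before scaling, was 767 for SMARCA4-KD1 and 673 for SMARCA4-KD2, against 597 for NC. COL1A1 alone held 477, 387 and 348 of it in the same order, whereas PTPRC and CD14 were lower in SMARCA4-KD2 than in NC. The part of these markers in the formin values was not tested.

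The 10 members had 19 probes, and the accession of each probe carried the same gene symbol in the RefSeq table. Of these probes, 15 passed the filter of being well above background on at least 1 array, and 13 were well above background on all arrays. The other 2 that passed were a DIAPH1 probe that was dim in SMARCA4-KD1 and an FMNL1 probe that was dim in NC, and each could pass because another array was brighter. The 4 probes that failed were all 3 probes of FMN2 and 1 of FMNL3. In both knockdowns, 5 member probes were at least 1.5-fold lower than NC, beside 7.97% of the 29333 probes that passed on the whole array, and 2 were at least 1.5-fold higher, beside 6.58%. Because the contrast that chose the set is the same one, nothing is read from these counts. With the normexp background correction and an offset of 50, the counts were 2 lower and 2 higher, beside 3.48% and 3.81% of all probes, since DAAM1 and the lower INF2 probes fell short of 1.5-fold in SMARCA4-KD2.

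**Figure D1:**
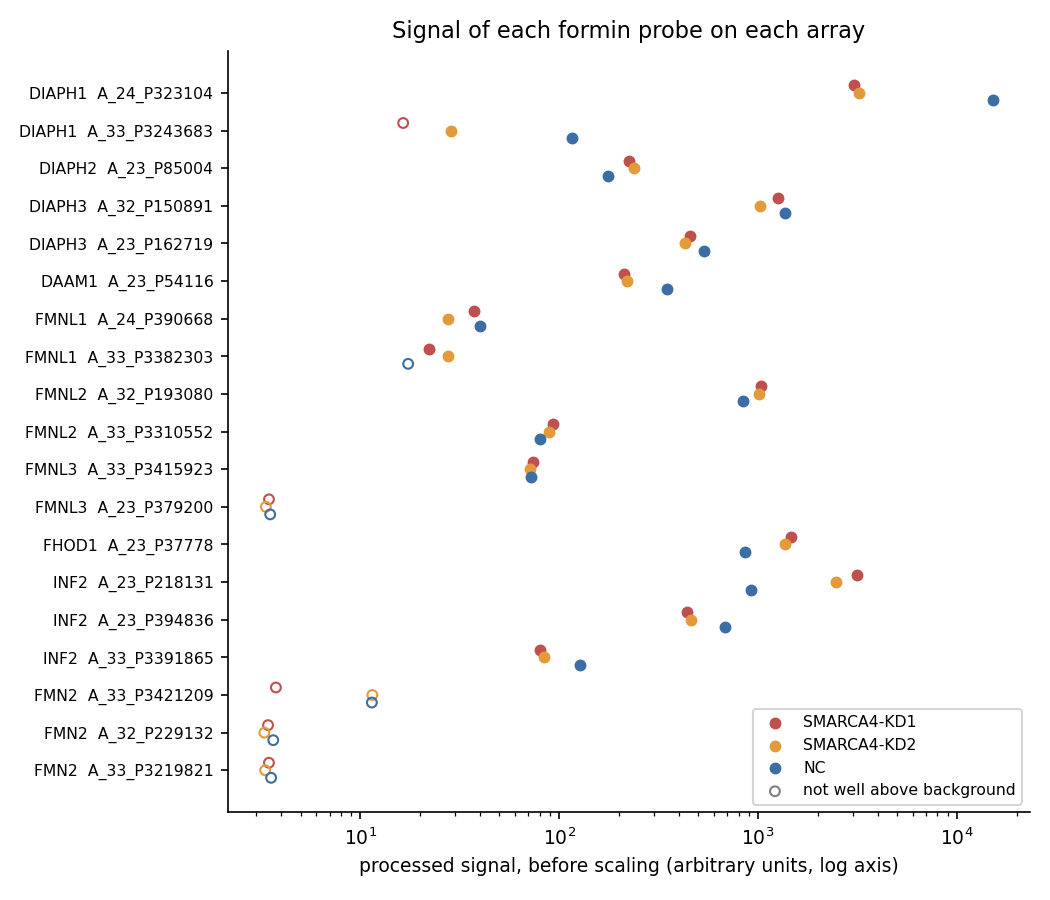
Processed signal (log axis, arbitrary units, before scaling) of each of the 19 formin probes in SMARCA4-KD1, SMARCA4-KD2 and NC, with open circles for values not well above background. Both DIAPH1 probes are dimmer in both knockdowns than in NC, the INF2 probe A_23_P218131 is brighter, and the 3 FMN2 probes are open on every array; positions of different probes cannot be compared with each other.

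With the brightest probe taken for each gene, 9 of the 10 genes could be compared and FMN2 could not. DIAPH1 and DAAM1 made 2 genes that were at least 1.5-fold lower in both knockdowns, beside 8.01% of the 22619 genes that passed. FHOD1 and INF2 made 2 that were higher by this measure, beside 6.37% of all genes. The remaining 5 genes were in neither class. Over the 9 genes the median log2 fold changes were -0.04 (SMARCA4-KD1) and -0.05 (SMARCA4-KD2), next to medians of -0.002 and 0.02 over all genes. The sign of the formin median was positive with normexp correction and with the mean over probes, so it has no settled direction. The family as a group had no common direction under the settings tried.

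The diaphanous formins come first. DIAPH1 is the founding human member, which builds stress fibres and also stabilises microtubules, and mutations in it cause hereditary deafness. Its probes lie on the minus strand of chromosome 5 with 11220 bases between their sites. The bright probe, A_24_P323104, matches chr5:140894589-140894648 (hg19) and starts at base 5729 of the transcript, and the dim probe, A_33_P3243683, matches chr5:140905868-140905927 and starts at base 3515. Each is listed for 2 RefSeq mRNAs and annotated as transcript variant 1. A stretch of 30 bases of the bright probe and the whole dim probe are shown because the DIAPH1 values rest on them, with the polyadenylation motif AATAAA of the bright probe in capitals, and the motif does not occur in the dim one. Of the 58201 60-base probes of the array, 7.85% hold this motif.
A_24_P323104, bases 30 to 59: tttccaactgttAATAAAgcattgaaacag
A_33_P3243683: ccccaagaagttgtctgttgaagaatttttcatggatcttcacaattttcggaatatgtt

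The bright DIAPH1 probe had a signal of 3046 for SMARCA4-KD1 and 3231 for SMARCA4-KD2, against 15276 for NC. Both knockdowns were low and close to each other, and NC stood apart. On the log2 scale SMARCA4-KD1 differed from NC by -2.41 and SMARCA4-KD2 by -2.27, each with an error of 0.20, which is 5.32-fold and 4.83-fold lower than NC. In RNA from a whole culture, fewer cells that express a gene and less RNA per cell cannot be told apart.

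The dim DIAPH1 probe, 11220 bases nearer the 5′ end of the gene, gave the same order. Its signal was 16.4 in SMARCA4-KD1, where it was not well above background, 28.7 in SMARCA4-KD2 and 117 in NC. The probe was at least 7.32-fold lower in SMARCA4-KD1, a limit set by the lowest signal well above background on that array, and 4.16-fold lower in SMARCA4-KD2, a log2 fold change of -2.06 with an error of 0.27. With normexp correction, which adds an offset to every spot, its log2 fold changes were -1.30 and -1.04, in the same direction but smaller.

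DIAPH2, a relative encoded on chromosome X whose disruption has been linked to ovarian failure, had the opposite sign. Its 1 probe had signals of 224 for SMARCA4-KD1 and 237 for SMARCA4-KD2, against 175 for NC. The log2 fold changes of 0.27 and 0.41, with an error of 0.21, stayed under 1.5-fold.

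DIAPH3, which works in filopodia and in the contractile ring of dividing cells, was measured by 2 probes. The brighter gave 1257 for SMARCA4-KD1 and 1029 for SMARCA4-KD2, against 1369 for NC, log2 fold changes of -0.21 and -0.44. The other gave 457, 428 and 537 in the same order, log2 fold changes of -0.32 and -0.36. Both probes were slightly lower in both knockdowns by less than 1.5-fold, with an error of 0.20. Among the 3 diaphanous genes, DIAPH1 was the one past 1.5-fold. The set was chosen by its value on these arrays, so nothing is read from that.

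**Figure D2:**
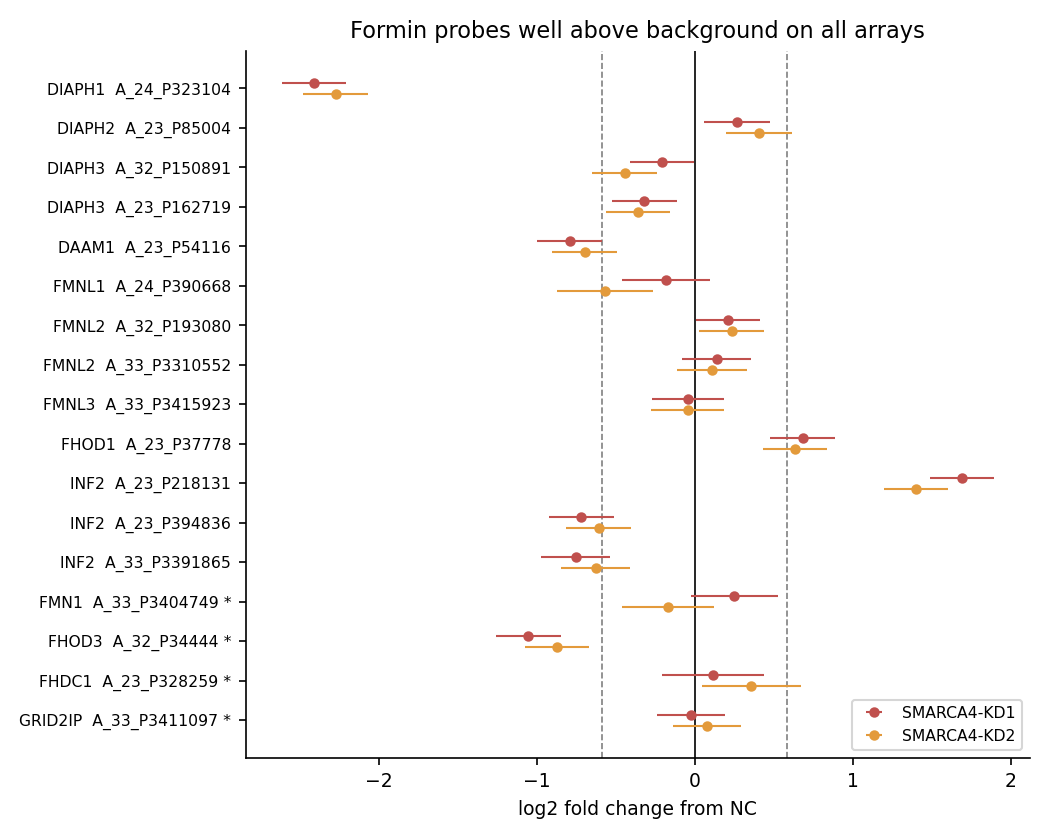
Log2 fold change from NC in SMARCA4-KD1 and SMARCA4-KD2 for the formin probes that were well above background on all 3 arrays (13 of the 10 members and, with an asterisk, 4 of other formins), with bars for the error of the extraction software and dashed lines at 1.5-fold. The DIAPH1 probe lies at -2.41 and -2.27, and the INF2 probes lie on both sides of 0.

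DAAM1 links Wnt signals to actin by binding Dishevelled, the hub of the planar cell polarity pathway. Its 1 probe had signals of 213 for SMARCA4-KD1 and 219 for SMARCA4-KD2, against 347 for NC. These are log2 fold changes of -0.79 and -0.70, 1.73-fold and 1.62-fold lower than NC, with an error of 0.21. With normexp correction the values were -0.61 and -0.53, and the second no longer reached 1.5-fold.

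FMNL1, FMNL2 and FMNL3 are the formin-like proteins of lamellipodia and filopodia. FMNL1, best known from blood cells, was close to background. Its brighter probe had signals of 37.4 for SMARCA4-KD1 and 27.6 for SMARCA4-KD2, against 39.99 for NC, log2 fold changes of -0.18 and -0.57 with errors of 0.28 and 0.30. The other FMNL1 probe had signals of 22.1 and 27.5 in the knockdowns and 17.4, not well above background, in NC, so it was at least 1.18-fold higher in SMARCA4-KD1 and at least 1.52-fold higher in SMARCA4-KD2. The FMNL1 probes disagreed in sign at these low signals, and neither direction can be taken as that of the gene.

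FMNL2, which drives migration of carcinoma cells, had both of its probes well above background on every array. Its first probe had signals of 1037 for SMARCA4-KD1 and 1016 for SMARCA4-KD2, against 845 for NC, log2 fold changes of 0.21 and 0.23. Its second had 93.5, 88.5 and 80.2, log2 fold changes of 0.14 and 0.11. The FMNL2 probes had the same sign. The first was near its error of 0.20, and the second was below its error of 0.22. With normexp correction the second came to 0.01 and 0.02. The measurable FMNL3 probe had signals of 74.2, 71.5 and 72.1, log2 fold changes of -0.04 and -0.05, and so showed no difference beyond its error of 0.23.

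FHOD1 is a formin that bundles and caps filaments of stress fibres. Its 1 probe had signals of 1469 for SMARCA4-KD1 and 1370 for SMARCA4-KD2, against 863 for NC. It was 1.61-fold and 1.55-fold higher than NC, log2 fold changes of 0.68 and 0.63 with an error of 0.20, so the error reaches below the 1.5-fold line. FMN2, a formin of oocytes and neurons, had 3 probes with signals between 3.29 and 11.5 over the 3 arrays, none well above background, and no fold is given for it.

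INF2 is known for severing filaments as well as building them, and it acts at the endoplasmic reticulum where mitochondria divide; mutations in it cause kidney disease. Its 3 probes lie on the plus strand of chromosome 14 and did not move together. A_23_P218131 matches chr14:105171047-105171106 (hg19), is listed for 1 RefSeq mRNA, and is annotated in the array file as transcript variant 3. A_33_P3391865 matches chr14:105181133-105181192 and A_23_P394836 matches chr14:105185512-105185589, 10027 and 14406 bases further along. Each is listed for 2 RefSeq mRNAs, and they are annotated as transcript variants 2 and 1 in that order. The sites of exons in this build were not used here. The first 30 bases of each probe are shown because the sign of the INF2 value depends on which probe is read, and no base is in capitals.
A_23_P218131: actgccctagaaggcaaatcgcctacgtta
A_33_P3391865: ggccgggcctcaaaggggaccgggaagcga
A_23_P394836: aaatgcaatgctttgcaagtctttactgct

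The variant 3 probe had signals of 3140 for SMARCA4-KD1 and 2474 for SMARCA4-KD2, against 917 for NC. Both knockdowns were higher than NC, by 3.23-fold and 2.64-fold, log2 fold changes of 1.69 and 1.40 with an error of 0.20. This is the value that stands for INF2 when the brightest probe is taken.

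The other INF2 probes were lower in the knockdowns. A_23_P394836 had signals of 442 for SMARCA4-KD1 and 460 for SMARCA4-KD2, against 685 for NC, log2 fold changes of -0.72 and -0.61. A_33_P3391865 had 79.8, 84.2 and 127, log2 fold changes of -0.75 and -0.63. These pass 1.5-fold in both knockdowns, but with normexp correction they came to -0.59 and -0.47 for the first and to -0.40 and -0.35 for the second, which no longer pass in both. Their sign was negative in each of the scalings tried, and that of the variant 3 probe positive.

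The change of the variant 3 probe exceeded that of A_23_P394836 by 2.41 on the log2 scale in SMARCA4-KD1 and by 2.01 in SMARCA4-KD2, with an error of 0.29. Against A_33_P3391865 the excess was 2.44 and 2.02, with an error of 0.30. A contrast between probes within the same arrays does not depend on the scaling factor of an array. With 1 array per group it describes these arrays only, and they do not say which INF2 transcript each signal came from.

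**Figure D3:**
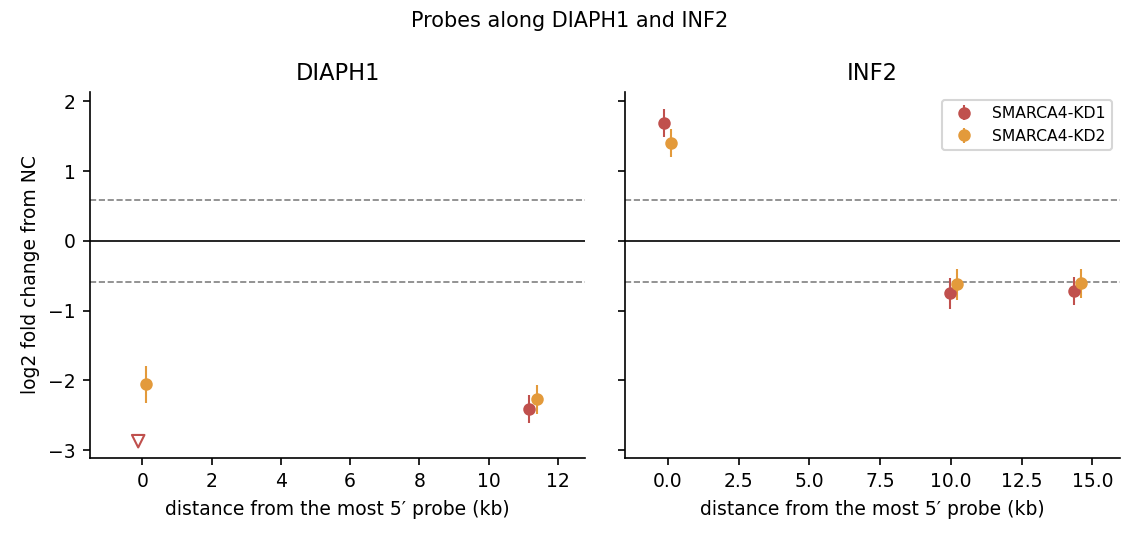
Log2 fold change from NC of each DIAPH1 and INF2 probe against its distance (kb) from the most 5′ probe of the gene, with bars for the error of the extraction software, dashed lines at 1.5-fold and an open triangle for a limit. Both DIAPH1 probes lie below -2, whereas the most 5′ INF2 probe lies at 1.69 and 1.40 and the other 2 lie between -0.75 and -0.61.

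The knockdown arrays shared a slide, so the formin values on them can be compared without NC. Over the 13 probes well above background on all arrays, SMARCA4-KD1 minus SMARCA4-KD2 ran from -0.14 to 0.39 on the log2 scale. The highest was the brighter FMNL1 probe at 0.39 (error 0.30), followed by the variant 3 probe of INF2 at 0.29 (error 0.20), and the bright DIAPH1 probe was at -0.14 (error 0.20). No test of these differences was possible.

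The 5 other human formins had 8 probes, of which 6 passed the filter and 4 were well above background on all arrays. FHOD3, the formin of heart muscle sarcomeres and the nearest relative of FHOD1, had signals of 398 for SMARCA4-KD1 and 436 for SMARCA4-KD2, against 779 for NC. It was 2.08-fold and 1.83-fold lower than NC, log2 fold changes of -1.05 and -0.87 with an error of 0.20, and stayed at least 1.5-fold lower under each scaling tried. The FHOD genes thus had opposite signs.

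FHDC1, which acts on microtubules and the Golgi, had log2 fold changes of 0.12 and 0.36, with errors of 0.32 and 0.31. GRID2IP, a formin of Purkinje cell synapses, had -0.02 and 0.08. FMN1, which acts at cell junctions and in limb formation, had 0.25 and -0.17. None of these 3 was past 1.5-fold in either knockdown at these probes; a second FMN1 probe was dim on every array and a second GRID2IP probe was well above background in SMARCA4-KD2 alone. DAAM2, the relative of DAAM1, had 1 probe well above background in SMARCA4-KD2 alone and 1 on no array. The 4 probes of the antisense genes DIAPH2-AS1, DIAPH3-AS1 and DIAPH3-AS2 were not well above background on any array.

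The genes around the formins were read through 6 lists with 88 genes in all, 81 of which passed the filter, by the brightest probe of each. Over the lists, 7 genes were at least 1.5-fold lower and 4 at least 1.5-fold higher in both knockdowns, 8.64% and 4.94%, next to 8.01% and 6.37% of all genes. Quantile normalization gave 10 lower and 3 higher (all genes 8.59% and 5.67%), normexp correction 6 lower and 2 higher (all genes 3.81% and 3.997%), and scaling on probes well above background 9 lower and 2 higher (all genes 9.25% and 5.18%). These counts over the 6 lists were not tested.

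Among 14 proteins that bind formins, 2 were lower and 1 was higher in both knockdowns. These are 14.3% and 7.14%, beside 8.01% and 6.37% of all genes, and were not tested. FLNA, the filamin that crosslinks actin, had log2 fold changes of -0.69 and -0.84, and its second probe gave -0.28 and -0.76. BAIAP2, a membrane-bending protein that binds DIAPH1, had 0.99 and 0.87, with other probes at 0.71 and 0.73 and at 0.24 and -0.14. SRGAP2, a membrane-bending protein that binds FMNL1, had -0.64 and -0.61 at its brightest probe but 0.91 and 0.93 at its other probe. The SRGAP2 probes disagreed in sign, so its direction is uncertain here, and the lower value did not reach 1.5-fold with normexp correction. The medians of the list were -0.03 and -0.04.

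The list of actin, profilins and the actin-binding beta-thymosins TMSB4X and TMSB10 had 0 genes past 1.5-fold in both knockdowns out of 7. The counts in this paragraph stand beside 8.01% lower and 6.37% higher over all genes, and were not tested. ACTB had log2 fold changes of -0.003 and -0.05, and PFN1, the main profilin, 0.42 and 0.27. The Arp2/3 complex and its activators, the branched-network machinery, gave 1 higher (5.26%) and 0 lower of 19, with medians of 0.23 and 0.11. The higher gene was CYFIP1, a subunit of the WAVE complex, at 0.63 and 0.74, which fell short of 1.5-fold in SMARCA4-KD1 under 3 of the other scalings (0.52 with quantile normalization, 0.58 with normexp and 0.57 with scaling on detected probes). With quantile normalization (all genes 5.67% higher and 8.59% lower) and with scaling on detected probes (5.18% and 9.25%), this list had 0 higher and 1 lower. Of 5 other nucleators that passed, COBLL1, related to the nucleator COBL, was the 1 lower gene at -0.96 and -0.78, against list medians of 0.43 and 0.21. Among 17 genes of filament turnover and capping, VASP, which speeds filament growth, was the 1 lower gene at -0.91 and -0.77, and the medians were -0.04 and -0.09.

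**Figure D4:**
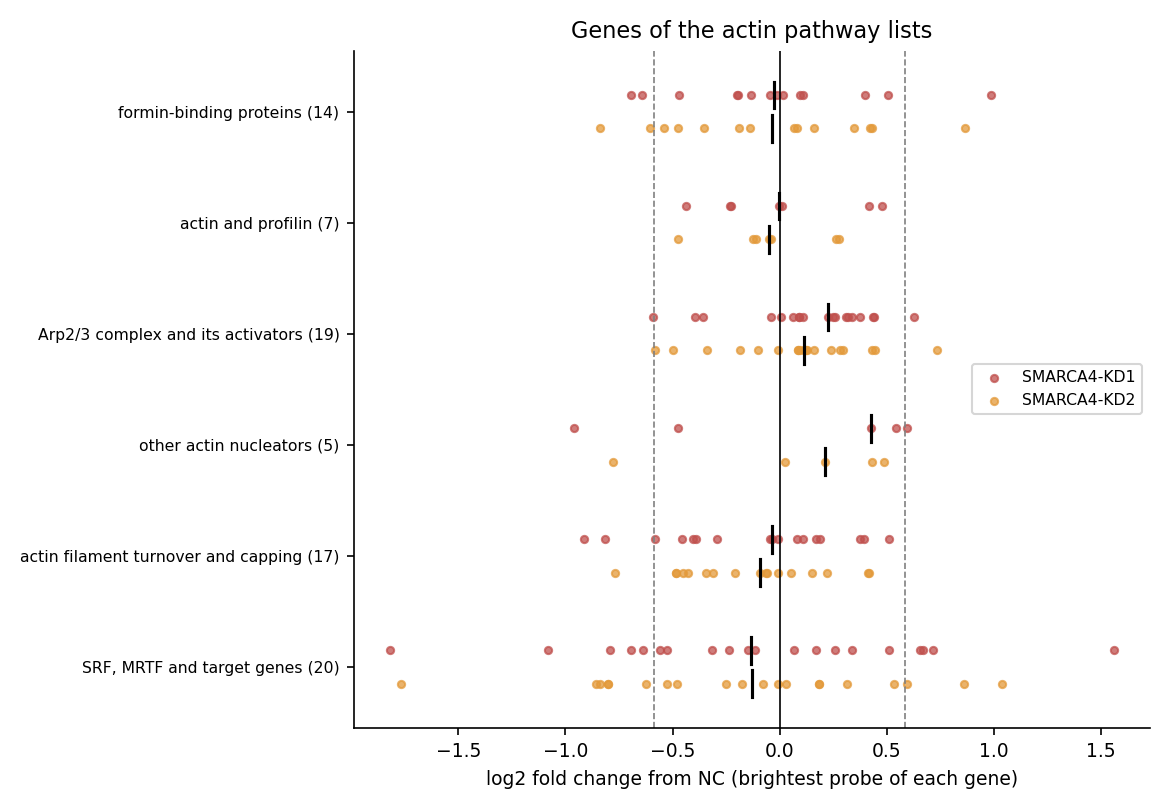
Log2 fold change from NC in SMARCA4-KD1 and SMARCA4-KD2 of the genes that passed the filter in each of the 6 actin pathway lists (their number in brackets), by brightest probe, with a black bar at each median and dashed lines at 1.5-fold. The medians lie between -0.13 and 0.43, and single genes such as MYL9 and CYR61 lie far from them.

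SRF and MRTF link actin assembly to transcription, and 4 of the 20 genes of their list were lower and 2 higher in both knockdowns. These are 20% and 10%, beside 8.01% and 6.37% of all genes. Quantile normalization gave 6 lower and 2 higher (all genes 8.59% and 5.67%). Scaling on detected probes gave 5 lower and 1 higher (all genes 9.25% and 5.18%). Normexp correction gave 4 lower and 1 higher (all genes 3.81% and 3.997%). At a fold of 2 there were 1 lower and 1 higher (all genes 2.11% and 1.47%). These counts were not tested. MYL9, a myosin light chain of contractile filaments, had signals of 295 for SMARCA4-KD1 and 295 for SMARCA4-KD2, against 982 for NC, log2 fold changes of -1.82 and -1.77. TPM2, a tropomyosin that coats filaments, had -1.08 and -0.80, TAGLN2, an actin-binding relative of transgelin, -0.79 and -0.86, and the fourth was FLNA. CYR61, a secreted matrix protein, had 1.56 and 1.04. SRF itself had 0.72 and 0.59, which did not reach 1.5-fold in both knockdowns with normexp correction (0.44 and 0.34) or with scaling on detected probes (0.66 and 0.55). The medians of the list were -0.13 and -0.13, and known targets lay on both sides of 0.

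Probes within 250 kb of the DIAPH1 probes were read to see whether other genes of the region had a like value. There were 33 such probes with 27 gene names, of which 12 passed the filter and 9 were well above background on all arrays. Of the 12, none was at least 1.5-fold lower in both knockdowns, beside 7.97% of all probes, and 1 was higher, beside 6.58%, namely RELL2, a relative of the TNF receptor family protein RELT, at 0.94 and 0.93. The 9 probes ran from -0.13 to 0.94 in SMARCA4-KD1 and from -0.28 to 0.93 in SMARCA4-KD2. HDAC3, a histone deacetylase, had 0.23 and 0.12, TAF7, a subunit of the general transcription factor TFIID, 0.19 and 0.15, and the nearest measured probe, assigned to PCDHGA8 of the gamma-protocadherin cluster, 0.04 and 0.06. ARAP3 had -0.13 and -0.19, PCDHGA2 0.44 and 0.46, PCDHGA7 -0.13 and 0.28, PCDHGA12 0.28 and -0.28 and FCHSD1 0.21 and -0.05. The other 3 probes were each well above background on 1 array, so their folds are limits with wide errors. PCDHGA3 had signals of 3.57 for SMARCA4-KD1, 83.1 for SMARCA4-KD2 and 4.07 for NC. In SMARCA4-KD2, where it was detected, it was at least 4.60-fold higher than NC (log2 error 1.46). PCDHGB7, detected in SMARCA4-KD1, was at least 1.36-fold higher there (log2 error 1.47). PCDHGC4 was detected in NC, with the knockdowns lower by at least 1.39-fold and 1.38-fold (log2 errors 1.48 and 0.47). None of the 9 probes had a value as low as that of the bright DIAPH1 probe, and so few probes say nothing of the region as a whole.

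**Figure D5:**
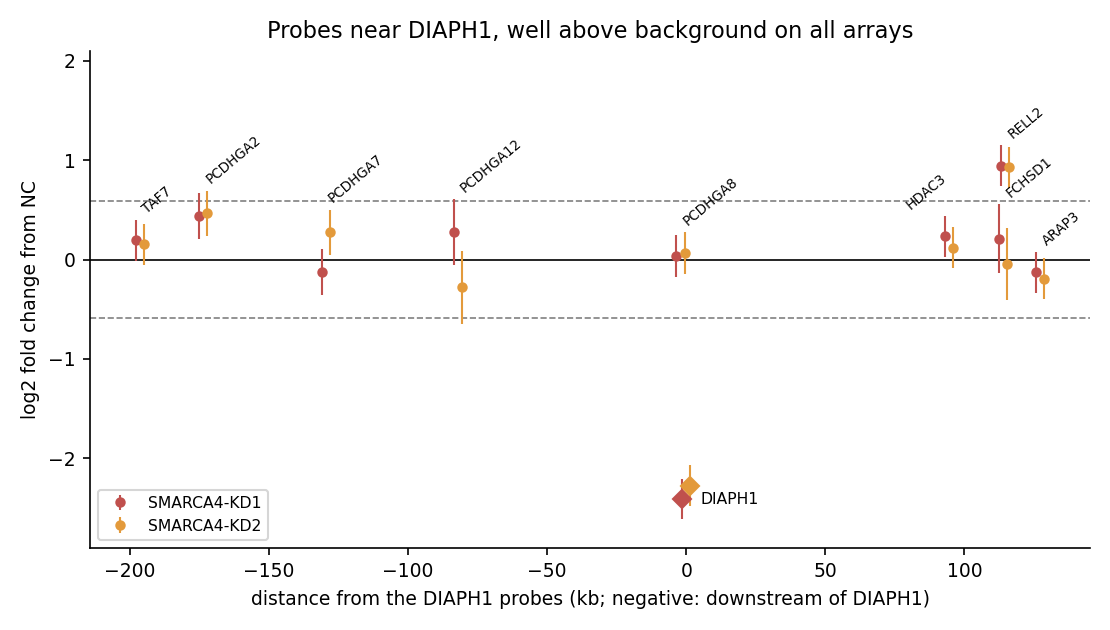
Log2 fold change from NC in SMARCA4-KD1 and SMARCA4-KD2 of the 9 probes within 250 kb of DIAPH1 that were well above background on all arrays, against distance (kb) from the DIAPH1 probes, with bars for the error of the extraction software and dashed lines at 1.5-fold. The DIAPH1 probe (diamonds) lies at -2.41 and -2.27, whereas the others lie between -0.28 and 0.94.

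The pair of log2 fold changes of the bright DIAPH1 probe was compared with that of 19502 genes well above background on all 3 arrays, by Euclidean distance. The nearest 5 were ENST00000453852 on chromosome 1 (-2.43 and -2.29, distance 0.03), LOC101926941 on chromosome 5 (-2.23 and -2.18, 0.20), CALHM3, a calcium homeostasis modulator, on chromosome 10 (-2.16 and -2.19, 0.27), LOC101059954 on chromosome 17 (-2.50 and -1.996, 0.29) and ENST00000436473 on chromosome X (-2.10 and -2.31, 0.31). None of them is a formin. With 3 arrays the pattern is a pair of numbers, so likeness says only that both differences from NC were of a similar size.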

How the data were processed

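Total RNA of HCT116 cells was measured on 1-colour Agilent arrays (SurePrint G3, human v3 design), 1 for each of 3 groups. Titles and the siRNA protocol gave SMARCA4 as the target, and the treatment field, which names PRMT1, gave the knockdown number. The deposited files hold spot intensity, read out by the authors in Agilent Feature Extraction 10.7.1.1 (background subtraction and detrending, no normalization between arrays), and the authors' series-level table holds the same intensity. Deposited flags were used as given. Control spots and outlier-flagged spots were left out, and repeated spots were averaged on the log2 scale. Of the 58201 probes, 30 lost every spot on an array, none of them a formin probe. The 75th percentile of log2 processed signal over non-control probes was subtracted from each array. A value not well above background was raised to the lowest value well above background on that array where it lay beneath it, and folds against it are limits. On each array, 46.8% (SMARCA4-KD1), 47.3% (SMARCA4-KD2) and 45.7% (NC) of probes passed the well above background flag. A probe was kept if it passed on any array, and the probe of highest mean signal stood for its gene. Called means at least 1.5-fold, the fold of the study's methods, with no test, and precision is limited by having so few arrays. Errors are the processed signal errors of the extraction software, combined on the log2 scale.

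The named genes are all members with every probe, other formins and formin antisense genes, SMARCA4 and PRMT1, up to 6 genes of each list past 1.5-fold with 1 sign in both knockdowns, genes within 250 kb of DIAPH1, and the 5 genes nearest to DIAPH1. SMARCA2, ACTB and PFN1 were added for their roles. Of the 8 pathway lists drawn up, 2 are not reported here. The members and lists were chosen with earlier results of these data known. The array files gave gene names and hg19 positions. Alternatives were quantile normalization, normexp with an offset of 50, the percentile over detected probes, the series-level table, no floor, a fold of 2, other filters and the mean over probes. Steps were tested on simulated data. Python 3.11.15, numpy 2.4.6, pandas 2.3.3, matplotlib 3.10.9, R 4.3.3 and limma 3.58.1 were used. The PRMT1 arrays were not analysed here.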

Additional observations from a re-analysis of the deposited data

Results flagged for a closer look

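Among the formin probes and the probes near DIAPH1 that were well above background on all arrays, 5 had opposite signs in the knockdowns relative to NC. SMARCA4-KD1 minus SMARCA4-KD2 was 0.42 on the log2 scale for FMN1 (error 0.27), -0.10 for GRID2IP (error 0.21), -0.40 for PCDHGA7 (error 0.22), 0.56 for PCDHGA12 (error 0.34) and 0.26 for FCHSD1 (error 0.32). With 1 array per group these differences were not tested. The 5 came from 13 member probes, 4 probes of other formins and 9 probes near DIAPH1. Both differences use the same NC array, and the share of such probes over the whole array was not worked out. Nothing is therefore read from this count.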

How the results depend on the processing

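Over the 5 alternatives in scaling, background, source or floor, 144 of 150 fold changes of member probes moved by no more than the error of the extraction software and 0 changed sign past 1.5-fold. The other 6 all arose with normexp correction, at the DIAPH1 probe A_33_P3243683, the INF2 probe A_33_P3391865 and both FMNL1 probes. With normexp, 24 of 30 values thus stayed within the error. The series-level table holds the same intensity and the floor acts only on dim values, so those settings could move little. The tally of 150 therefore says little of stability. Normexp left 2 member probes and 1 gene (DIAPH1) at least 1.5-fold lower. The mean over both DIAPH1 probes gave -2.64 or lower in SMARCA4-KD1, a limit because the dim probe was at the floor there, and -2.16 in SMARCA4-KD2. At a fold of 2, 2 member probes were lower and 1 higher (all probes 2.001% and 1.46%), 1 member gene was lower and 1 higher (all genes 2.11% and 1.47%), and over the pathway lists 1 gene was lower and 1 higher. Scaling on probes well above background and normexp each gave 2 higher genes over the lists in place of 4. The cause of these shifts was not tested. With no filter the median of all genes was -0.15 and -0.14, since values raised to the floor are lower in the knockdowns than in NC. No paired analysis was possible because each group had 1 array, and for the same reason no array could be left out. Signals near background limit the DIAPH1 probe A_33_P3243683 and both FMNL1 probes, and a spread between cultures is unknown for every value.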
